A study of Mus musculus with 8 samples.

Results

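The genes described here carry out the synthesis, binding, breakdown and sensing of retinoic acid: the retinaldehyde dehydrogenases Aldh1a1, Aldh1a2 and Aldh1a3, the vitamin A transporter Stra6, the binding proteins Crabp1 and Crabp2, the degrading enzyme Cyp26a1 and the receptors Rarb and Rarg. They were taken by name: every probe that the scanner tables list under one of these 9 gene names was kept, which gave 12 of the 41174 probes on the array, whose probes carry 27962 different names. The cells were R1 mouse embryonic stem cells, an established line derived from an early embryo, grown on gelatin in a medium with serum replacer. In the butyrate group (4 samples) they were kept without leukaemia inhibitory factor (LIF) with 0.2 mM sodium butyrate for 15 passages; butyrate is a small fatty acid known to block histone deacetylases. In the LIF group (4 samples) they were kept with LIF, a cytokine that maintains the undifferentiated state, and without feeder cells. Both groups share the line, the gelatin and the medium. The groups therefore differ in both butyrate and LIF, and the effects of adding the one and removing the other cannot be told apart. No passage number was found for the LIF samples, so the groups may also differ in time in culture.

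Retinoic acid is made in the cell from vitamin A by oxidation to retinaldehyde and then, by the ALDH1A enzymes, to the acid. It binds nuclear receptors of the RAR family, which sit with RXR partners on DNA and switch their target genes from repression to activation, and CYP26 enzymes break it down again. In embryonic stem cells added retinoic acid is a classic inducer of differentiation, and Cyp26a1 and Rarb are textbook direct targets of the receptors.

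RNA was measured on 4 Agilent arrays with 2 colours, each carrying the butyrate and the LIF sample of 1 replicate number. Butyrate samples carried the red dye Cy5 and LIF samples the green dye Cy3 on every array, and the effects of dye and treatment cannot be told apart. Of the non-control spots, 62.7% to 63.9% in the butyrate channel and 57.9% to 61.2% in the LIF channel were well above background. Replicates are labelled as independent, with no word on separate derivations of the line. The p-values thus measure only how these samples spread, in part perhaps for technical reasons. In bulk RNA, a change in the number of cells that express a gene and a change of RNA per cell cannot be told apart. Of stem cell markers, 8 of 9 tested were lower in butyrate, as were 32.5% of all tested probes on the arrays, and 1, Nanog, was higher. Their summed signal was 108000 to 118000 in butyrate and 166000 to 176000 in LIF. Dppa5a (50900 to 54900 in butyrate and 77500 to 83600 in LIF) and Zfp42 (31600 to 36300 and 35600 to 39800) led that sum.

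Signals below are background-corrected and normalized intensities in arbitrary units. They include an offset of 50 added before the log2 scale was taken, which keeps dim probes stable and understates their fold. A probe was tested where 1 of the channels was well above background on 3 or more of the 4 arrays. Of the 12 probes, 10 met this, with at least 1 for each of the 9 genes. In limma's fit to the 4 log2 ratios of butyrate over LIF, 8 of the 10 tested probes passed an adjusted p of 0.05, against 72.2% of all 25658 tested probes. Of these 8, 5 were higher in butyrate (39.7% of all tested probes) and 3 lower (32.5%), with a median log2 ratio of 0.19 over the 10 probes and 0.03 over all tested probes. The probe of Rarb was tested through its butyrate signal alone, being well above background on only 2 arrays in LIF. The signals of the groups did not overlap for 8 of the 10 probes, as for 65.3% of all tested probes. The share of these genes that passed was thus near that of the array as a whole, and what set them apart from one another was direction and size. The 5 genes that rose were Aldh1a1, Aldh1a2, Aldh1a3, Cyp26a1 and Rarb, and those that fell were Crabp1 and Rarg. With each array centred on its median instead of fitted by loess, neither Crabp1 nor Rarg passed as lower.

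**Figure D1:**
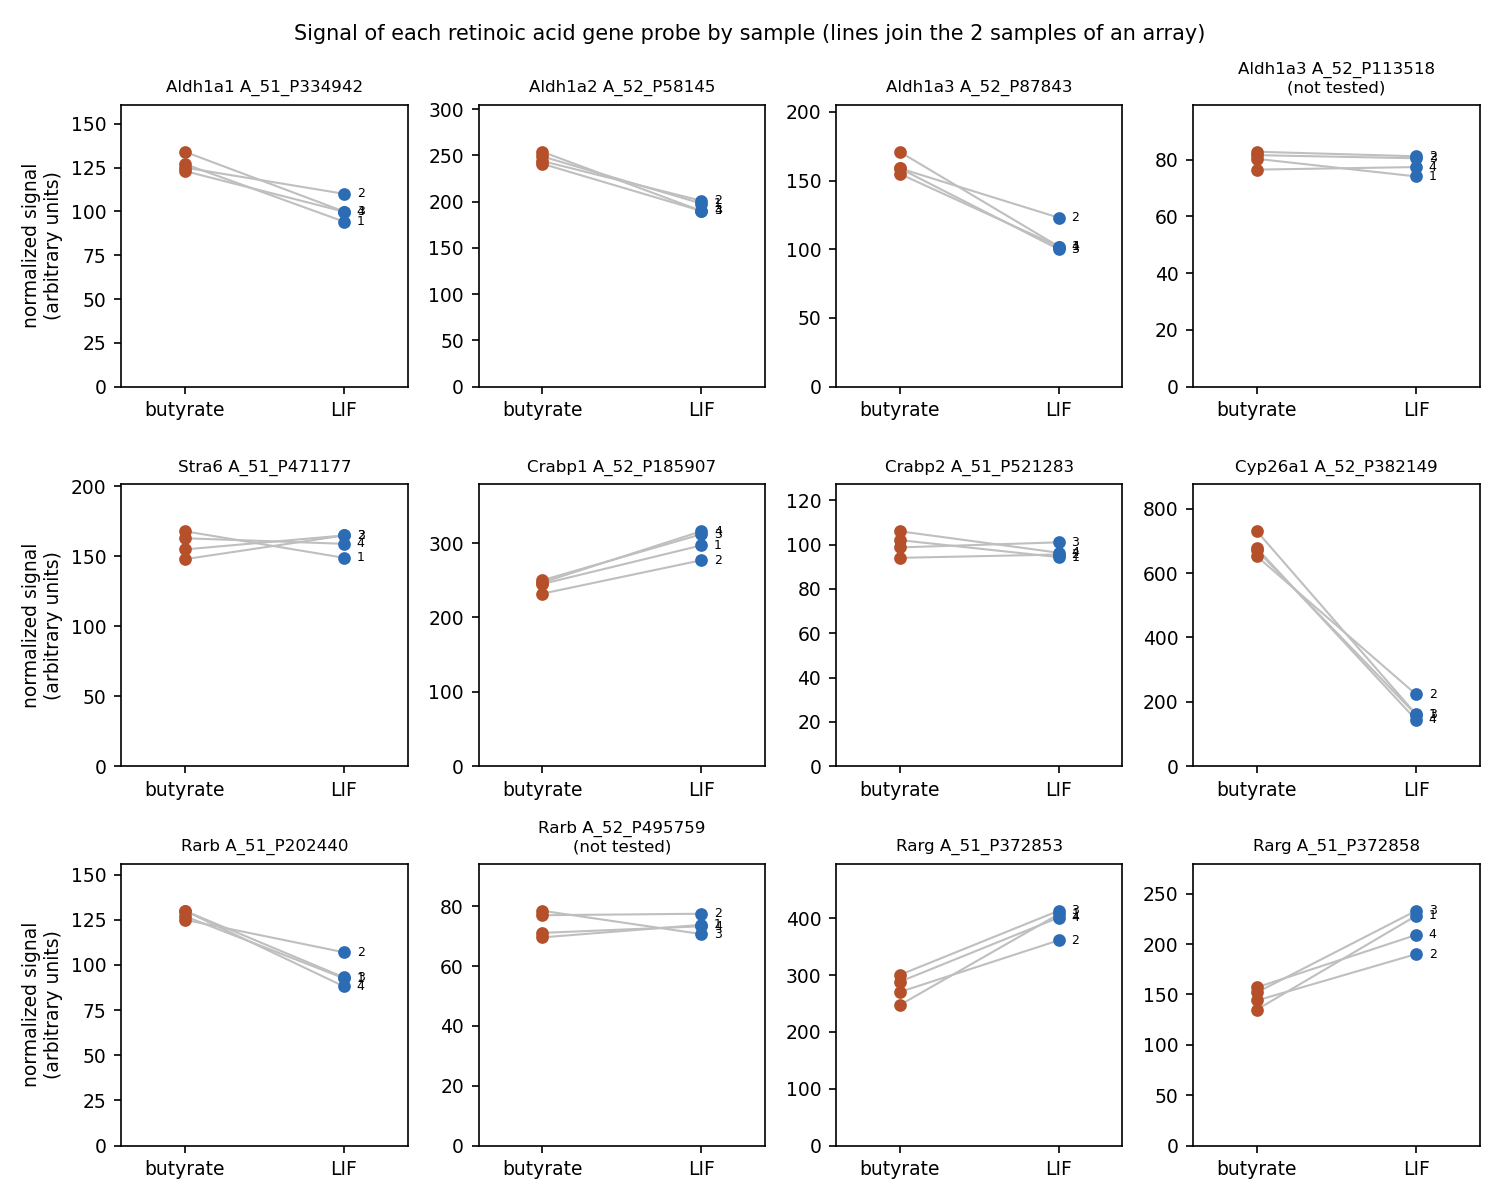
Normalized signal (arbitrary units, linear axes from 0) of each of the 12 probes in the 4 butyrate samples (left, orange) and the 4 LIF samples (right, blue); grey lines join the samples of an array and digits give its number. The butyrate points of Cyp26a1 lie between 652 and 730, far above its LIF points between 144 and 223, while those of Stra6 and Crabp2 overlap.

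Cyp26a1, the cytochrome P450 that degrades retinoic acid, changed most. The array has 1 probe for it (A_52_P382149). Its signal was 671, 652, 730 and 677 in the butyrate samples of arrays 1 to 4, against 160, 223, 161 and 144 in the LIF samples. Every butyrate sample was far above every LIF sample, and the LIF sample of array 2 was the highest of its group. The probe was well above background in both channels on the 4 arrays. Cyp26a1 was 4.01-fold higher in butyrate (log2 ratio 2.00 ± 0.31, SD, n = 4 arrays, limma adjusted p = 6.49e-07), the 138th highest ratio of 25658. With the offset of 50 it was the only one of the 9 genes past 2-fold, a size that 4.1% of all tested probes reached upwards and 1.61% downwards. With no offset Aldh1a3 also passed it, at a log2 ratio of 1.11, and Rarb stood at 1.0. With the log ratio of the scanner software, which adds no such offset, the log2 ratio of Cyp26a1 was 2.68. That log ratio also put Aldh1a3 (1.72), Rarb (1.68) and, downwards, Rarg probe A_51_P372858 (−1.1) past 2-fold, as did the authors' deposited value table.

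Cyp26a1 lies on chromosome 19, as does Aldh1a1. The 649 tested probes of chromosome 19 had a median log2 ratio of 0.15, against 0.01 for the 16345 probes of the other autosomes. The part of this shift in the ratios of both genes was not tested. The 250 bases upstream of Cyp26a1 (GRCm38.p6, chr19:37697558-37697807, plus strand) are shown because they hold a direct repeat of the hexamers that retinoic acid receptors are known to bind. Capitals mark the repeat, which is read on the opposite strand.
Cyp26a1: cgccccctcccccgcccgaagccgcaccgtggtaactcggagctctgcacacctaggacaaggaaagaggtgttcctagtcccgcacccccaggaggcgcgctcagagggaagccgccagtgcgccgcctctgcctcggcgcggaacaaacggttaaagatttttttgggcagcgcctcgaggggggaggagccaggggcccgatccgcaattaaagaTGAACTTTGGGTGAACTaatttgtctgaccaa

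The receptors divided. Rarb, the RAR gene that retinoic acid itself is known to induce, rose, and Rarg, the receptor that is abundant in embryonic stem cells, fell. The main Rarb probe (A_51_P202440) is printed 10 times on each array. Its signal, averaged over those spots, was 127, 125, 130 and 130 in butyrate, against 92.6, 107, 93.1 and 88.1 in LIF. The groups did not overlap, and the LIF sample of array 2 was again the highest of its group. Rarb was 1.35-fold higher in butyrate (0.43 ± 0.15, adjusted p = 0.000173 by limma). The LIF samples were dim: the probe counted as well above background on 4 arrays in butyrate and on 2 in LIF.

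The repeated spots show how well a signal this dim was measured within an array. In butyrate 10 of 10 spots were well above background on each array. In LIF, 9, 4, 4 and 7 of the 10 spots were so on arrays 1 to 4. The log2 ratios of single spots ran from 0.26 to 0.69 on array 1, from 0.13 to 0.28 on array 2, from 0.40 to 0.61 on array 3 and from 0.30 to 0.67 on array 4. All were above 0, and those of array 2 lay below nearly all others. A second Rarb probe (A_52_P495759) was not well above background in either channel on any array and was not tested. Its log2 ratio was 0.00 ± 0.10. With the scanner software's log ratio the main probe stood at 1.68, so the size of the Rarb difference depended on how the dim LIF signal was treated. The LIF channel's net signal before normalization averaged 5.44, against 74.2 in the butyrate channel.

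**Figure D2:**
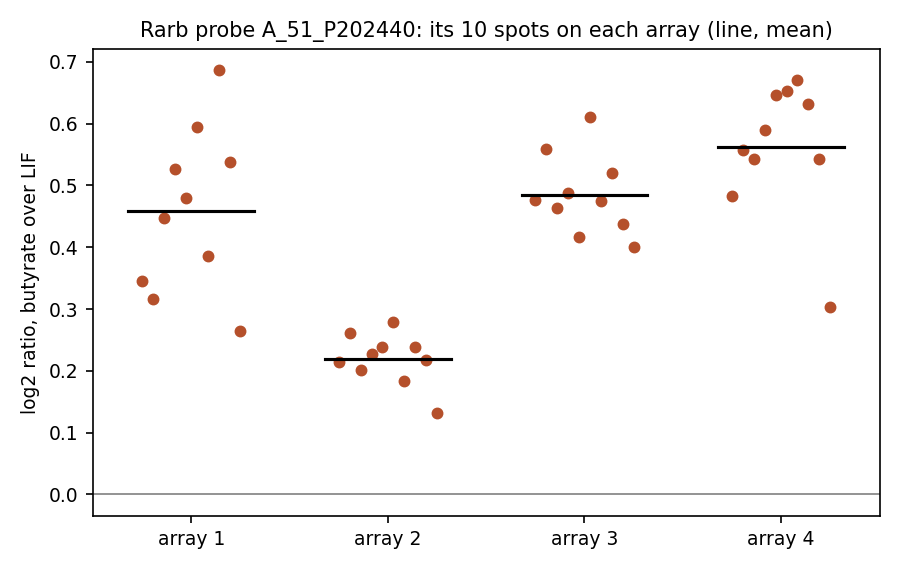
The log2 ratio of butyrate over LIF for each of the 10 spots of Rarb probe A_51_P202440 on each of the 4 arrays (points), with the mean of the array as a line. All spots lie above 0, and on array 2 they lie between 0.13 and 0.28.

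The promoter of Rarb is shown beside that of Cyp26a1 because both windows hold a direct repeat with the same spacing. The Rarb window is GRCm38.p6 chr14:16575477-16575726, minus strand, with the repeat in capitals.
Rarb: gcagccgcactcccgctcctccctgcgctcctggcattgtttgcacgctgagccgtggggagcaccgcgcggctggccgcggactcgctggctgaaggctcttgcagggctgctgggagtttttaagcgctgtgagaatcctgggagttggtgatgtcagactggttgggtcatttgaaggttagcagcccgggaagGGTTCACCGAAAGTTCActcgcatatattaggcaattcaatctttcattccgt

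The search used the hexamer AGGTCA with its variants AGTTCA as well as GGGTCA together with GGTTCA as direct repeats with 1, 2 or 5 bases between them, on both strands. In Rarb the match was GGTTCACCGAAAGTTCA, at chr14:16575513-16575529. In Cyp26a1 it was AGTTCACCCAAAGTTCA, at chr19:37697776-37697792. Both have 5 bases between the hexamers and share the second hexamer, AGTTCA. Of 32851 RefSeq promoters of that length, 29 (0.0883%) held a repeat with 5 bases between and 140 (0.426%) held one with any of the 3 spacings. RefSeq promoters were found for 7 of the 9 genes, 12 windows in all, and 2 held a match. Aldh1a3 and Crabp2 had no entry. The windows of Aldh1a1 and Aldh1a2, which also rose, held no match, nor did those of Crabp1, Rarg and Stra6. The matches describe the sequence in these windows only, and the arrays did not measure receptor binding. Any part of the repeats in the ratios was not tested.

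Rarg was read by 2 probes, which gave like ratios. Probe A_51_P372853 had signals of 247, 270, 300 and 288 in butyrate, against 407, 361, 413 and 401 in LIF. Probe A_51_P372858 had 135, 144, 152 and 157 in butyrate, against 228, 190, 233 and 209 in LIF. In both, every butyrate sample lay below every LIF sample. The first was 1.43-fold lower in butyrate (−0.52 ± 0.14, limma adjusted p = 3.89e-05) and the second 1.46-fold lower (−0.54 ± 0.17, limma adjusted p = 6.76e-05). Both calls ended with centring on the median and no loess, where the log2 ratios were −0.02 and −0.20 (limma adjusted p = 0.902 and 0.104). That scaling moved the median of all tested probes to 0.37, and relative to it the probes stood at −0.39 and −0.57. With the scanner software's log ratio they stood at −0.86 and −1.1, and with the authors' deposited value table at −0.85 and −1.12.

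The 3 retinaldehyde dehydrogenases, which make the acid, all rose by small amounts. Aldh1a3 rose most, by 1.51-fold in probe A_52_P87843 (0.59 ± 0.16, limma adjusted p = 3.62e-05). Its signal was 171, 159, 159 and 155 in butyrate, against 102, 123, 100 and 102 in LIF. The groups did not overlap, and the LIF sample of array 2 stood above the other LIF samples. A second probe under this name (A_52_P113518) was not well above background in either channel on any array, was not tested, and had a log2 ratio of 0.04 ± 0.06. With the scanner software's log ratio the brighter probe stood at 1.72, on net signals before normalization of 117 in butyrate and 11.7 in LIF.

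Aldh1a2, the form that makes most retinoic acid in the early embryo, had signals of 249, 244, 241 and 254 in butyrate, against 198, 201, 190 and 190 in LIF. The samples of each group lay close together and the groups did not overlap. It was 1.27-fold higher in butyrate (0.34 ± 0.06, limma adjusted p = 6.63e-05). Aldh1a1, an enzyme of many adult tissues, had signals of 127, 125, 123 and 134 in butyrate, against 94.1, 110, 99.8 and 99.9 in LIF. Here too every butyrate sample was above every LIF sample, and array 2 had the smallest difference. Aldh1a1 was 1.26-fold higher in butyrate (0.33 ± 0.12, limma adjusted p = 0.000357), and 0.88 on the log2 scale with the scanner software's log ratio. Its net signal before normalization averaged 73.7 in butyrate and 9.68 in LIF.

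Under loess normalization no increase passed for the binding proteins or the transporter. Crabp1, which holds retinoic acid in the cytoplasm and is known to speed its breakdown, had signals of 245, 232, 250 and 247 in butyrate, against 297, 277, 312 and 316 in LIF. The groups did not overlap and the difference was alike on the 4 arrays. Crabp1 was 1.23-fold lower in butyrate (−0.30 ± 0.04, limma adjusted p = 0.000101). With centring on the median its log2 ratio was 0.16 (limma adjusted p = 0.149), or −0.21 relative to the median of all tested probes. With the scanner software's log ratio and with the authors' deposited value table it was −0.58. Its net signal before normalization was 238 in butyrate and 156 in LIF. The median signal of the arrays, with background still included, was 110 to 111.4 in butyrate and 62.83 to 66.02 in LIF. The median background was 51 in butyrate and 42.5 to 48.5 in LIF. The direction of Crabp1, like that of Rarg (283 in butyrate and 227 in LIF for its brighter probe), is therefore relative to the centre that normalization sets.

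Crabp2, which is known to deliver retinoic acid to the receptors, had signals of 102, 94.0, 98.7 and 106 in butyrate, against 94.3, 95.5, 101 and 96.3 in LIF. The groups overlapped and the ratio was above 0 on 2 arrays and below on the other two. Its log2 ratio was 0.05 ± 0.09 (limma adjusted p = 0.331). Stra6, the membrane protein that takes up vitamin A from its plasma carrier and a known target of retinoic acid, had signals of 168, 155, 148 and 163 in butyrate, against 149, 165, 165 and 159 in LIF. These groups overlapped too, with a log2 ratio of −0.01 ± 0.15 (limma adjusted p = 0.918). Stra6 passed under another scaling in each direction: at 0.30 with centring on the median (limma adjusted p = 0.0204) and at −0.28 with the authors' deposited value table (limma adjusted p = 0.0482).

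**Figure D3:**
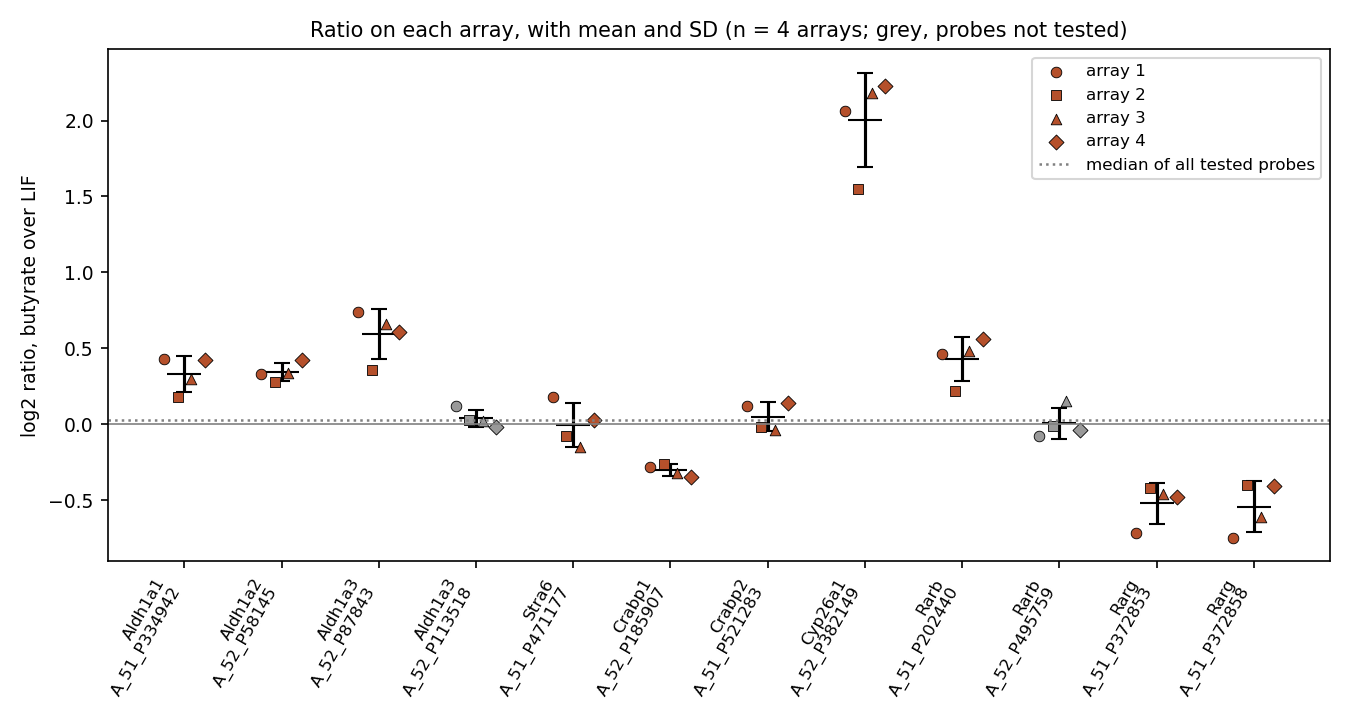
The log2 ratio of butyrate over LIF on each of the 4 arrays (symbols) for each of the 12 probes, with the mean and SD in black; grey symbols are the 2 probes not tested, and the dotted line is the median of all tested probes. The mean of Cyp26a1 stands at 2.00, the other means lie between −0.54 and 0.59, and the ratio of array 2 (squares) lies nearest to 0 for each of the 8 probes that passed.

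The arrays were not alike. For each of the 8 probes that passed, the ratio nearest to 0 was that of array 2. The same held for 50.4% of all probes that passed and for 67.6% of those that changed at least 2-fold. Without array 2 the log2 ratio of Cyp26a1 was 2.16, that of Aldh1a3 0.67 and that of Rarb 0.50. The same 5 probes remained higher and the same 3 lower whichever array was left out.

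Ratios most like those of Cyp26a1 over the 4 arrays, by root mean square difference, included those of Serpinb9e, a serine protease inhibitor (0.055), and of a probe listed only by its transcript identifier (0.074). Serpinb9e had log2 ratios of 2.07, 1.45, 2.22 and 2.27 on arrays 1 to 4, beside 2.06, 1.55, 2.18 and 2.23 for Cyp26a1. In both, array 2 had the smallest ratio.

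**Figure D4:**
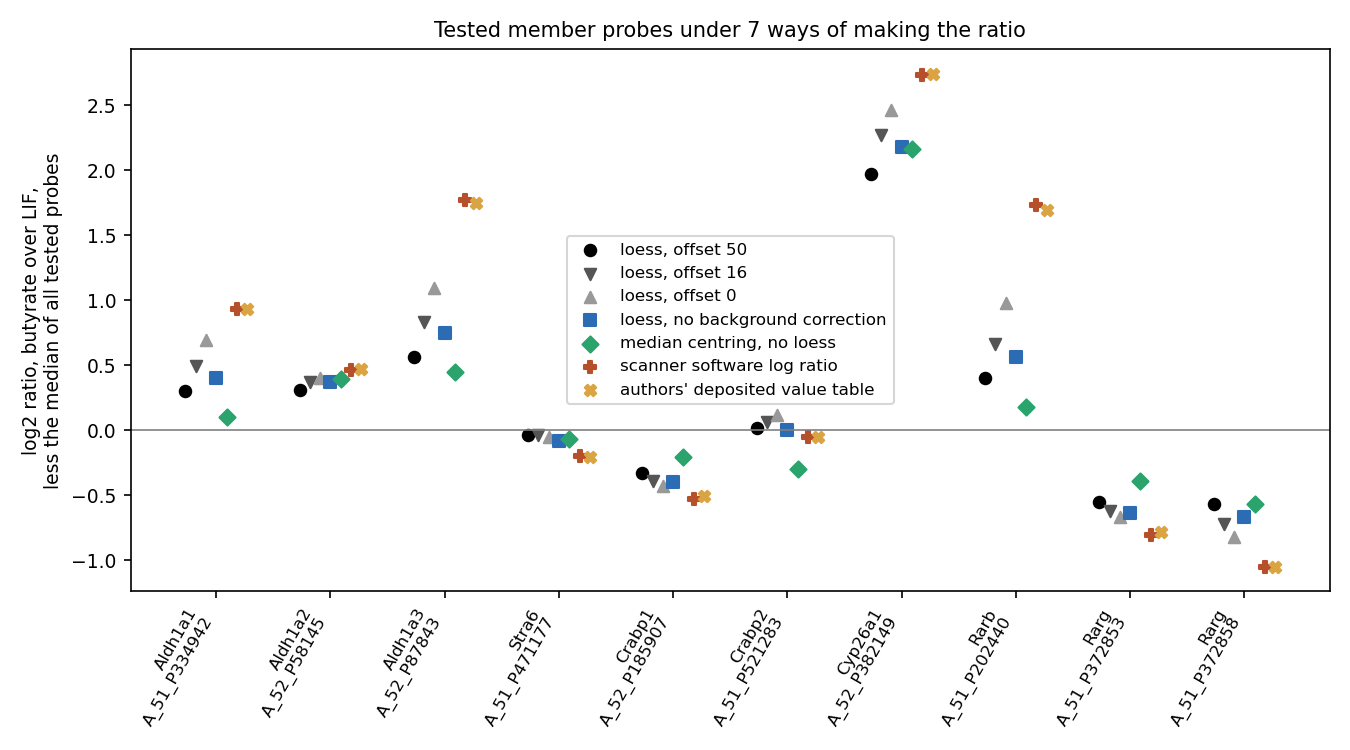
The log2 ratio of butyrate over LIF of the 10 tested probes, less the median of all tested probes, under 7 ways of making the ratio (symbols). Cyp26a1 runs from 1.97 to 2.74, the dim probes of Aldh1a3 and Rarb are highest with the scanner software's log ratio and the authors' deposited value table, and Crabp1 and both Rarg probes lie below 0 throughout.

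The rest of the pathway moved both ways. Of 53 list entries (transport, storage, oxidation and reduction of retinoids, RXR partners and receptor cofactors), 49 were on the array and 37 were tested. By the brightest probe of each gene, 17 were higher, 11 lower and 9 did not pass, with a median log2 ratio of 0.01. Thus 75.7% passed, against 72.2% of all tested probes and 74.8% with 1 probe per gene name. Of the 37 genes 4 were tested through their butyrate signal alone, 3 of them among the higher ones. The list was chosen with earlier results of these data known. Nrip1, a corepressor that binds ligand-activated receptors, rose 2.47-fold in its brightest probe (1.31 ± 0.08), and its other probes stood at 0.67 and 0.47 on the log2 scale. Rxra, the partner of the retinoic acid receptors, rose 2.10-fold in its brightest probe (1.07 ± 0.08), while its other probe rose by only 0.13 on the log2 scale. Cyp1b1, a cytochrome P450 that can oxidise retinoids, was 2.05-fold higher by its mean log2 ratio (1.04 ± 0.28). Its probe was not well above background in LIF on any array, so the LIF level behind that fold is uncertain, and with the scanner software's log ratio it stood at 4.13. Smaller increases followed for the coactivator subunit Med1 (0.66 ± 0.18), the plasma retinol carrier Rbp4 (0.64 ± 0.06), the retinol dehydrogenase Rdh10 (0.61 ± 0.09) and the binding protein Rbp7 (0.58 ± 0.11). Dimmer probes stood at 0.33 and 0.31 for Med1, 0.38 for Rdh10 and 0.40 for Rbp7. Rbp4 also lies on chromosome 19, and Med1 and Rara lie on chromosome 11, whose 1490 tested probes had a median log2 ratio of 0.18.

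Among the genes of this list that fell, the largest change by brightest probe was that of Rlbp1, a retinaldehyde-binding protein of the eye (1.65-fold lower, −0.72 ± 0.14). The reductase Dhrs4 (−0.65 ± 0.10), the retinal reductase Rdh11 (−0.57 ± 0.08), the alcohol dehydrogenase Adh5 (−0.50 ± 0.07) and the receptor partner Rxrb (−0.49 ± 0.11) followed. Dimmer probes of Rdh11 and Rxrb stood at −0.92 and −0.72. Rara, the remaining RAR gene, was 1.26-fold lower (−0.33 ± 0.14, limma adjusted p = 0.000705). The coactivator Crebbp had a log2 ratio of −0.24 ± 0.18, and its other tested probes, at 0.07 and −0.10, did not pass. Rdh14 had one of −0.23 ± 0.03, with another Rdh14 probe higher at 0.35. Under centring on the median, 22 genes of this list were higher and 1, Rlbp1, was lower (−0.34). Rara then stood at −0.17 and did not pass. Rdh14, Crebbp, Rxrb and Rdh11 then lay above 0, at 0.34, 0.35, 0.10 and 0.02, and of these only Rdh14 passed as higher (limma adjusted p = 0.0329).

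Of 40 entries in a list of genes known to respond to retinoic acid, 37 were on the array and 33 were tested. By the brightest probe of each gene, 22 were higher (39.7% of all tested probes were), 6 lower (32.5%) and 5 did not pass. The median log2 ratio was 0.27 (0.03 over all). Of these genes 84.8% passed, against 72.2% of all tested probes and 74.8% with 1 probe per gene name. At least 2-fold increases were seen for 8 (4.1% of all) and 2-fold decreases for 2 (1.61%). Of the 33 genes 9 were tested through their butyrate signal alone, and 7 of these are among the 22 higher. With the filter that asks for 4 of 4 arrays in both channels, 14 of 23 genes were higher and 6 lower. The list was chosen with earlier results known, and it shares genes with the previous one, such as Nrip1, Dhrs3 and Cyp26b1. Col4a1, a basement membrane collagen, rose 6.51-fold (2.70 ± 0.11), the homeobox cofactor Meis2 4.88-fold (2.29 ± 0.38) and the crosslinking enzyme Tgm2 4.85-fold (2.28 ± 0.04). Other Tgm2 probes rose by 0.70 and 0.87 on the log2 scale, and dimmer probes of Col4a1 and Meis2 by 2.21 and 1.84. Col4a1 lies on chromosome 8, where the 925 tested probes had a median log2 ratio of 0.25, and Hoxb1 and Hoxb2 lie on chromosome 11. The part of these shifts in the ratios was not tested. The ephrin Efnb1 (1.66 ± 0.12), the transcription factor Bhlhe40 (1.17 ± 0.04) and Hoxb2 (1.15 ± 0.31), well above background on 1 array in LIF, rose as well. Hoxb1, a textbook direct target, was 1.31-fold higher by its mean log2 ratio (0.39 ± 0.15), with a LIF signal not well above background on any array.

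The members of this list that fell were led by Gbx2, a homeobox gene (7.03-fold lower, −2.81 ± 0.20), and Lefty1, a Nodal antagonist (4.70-fold lower, −2.23 ± 0.11). Gbx2 and Lefty1 are also known as genes of the embryonic stem cell state. Pax6, a neural and eye transcription factor, was 1.55-fold lower (−0.63 ± 0.12), and a dimmer tested probe stood at −0.29. The meiotic gene Stra8 (−0.20 ± 0.07) and the homeobox gene Hoxa3 (−0.15 ± 0.05) changed little. With centring on the median both lay above 0, at 0.40 and 0.19, and Stra8 passed as higher (limma adjusted p = 0.0418). Under that centring 18 of its genes were higher and 3 lower.

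**Figure D5:**
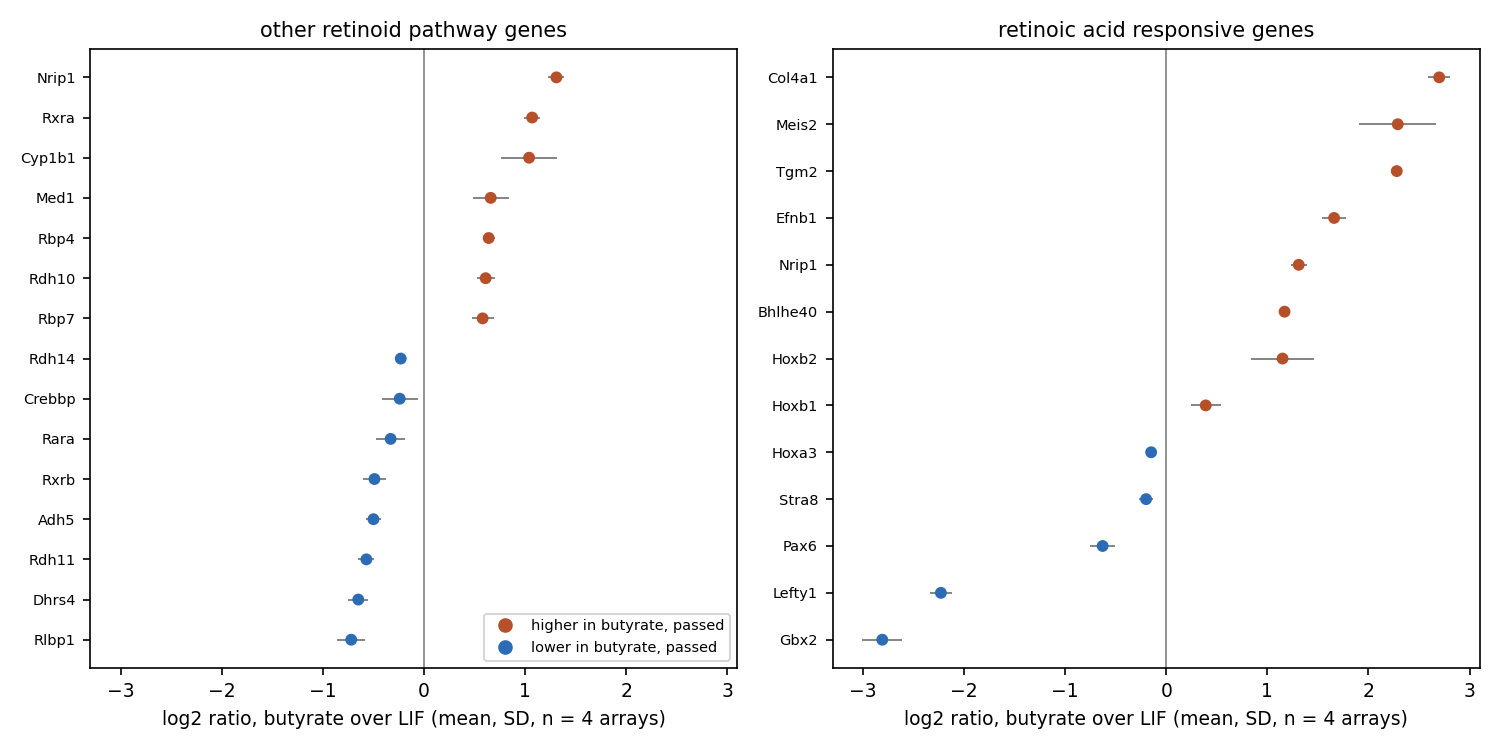
The log2 ratio of butyrate over LIF of the 15 genes named here from the other retinoid pathway list (left) and the 13 named from the retinoic acid responsive list (right), as mean and SD of 4 arrays; colours mark genes that passed as higher or as lower. The left genes run from −0.72 to 1.31 and the right ones from −2.81 to 2.70.

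Markers of other cell types also differed between the groups. Of all tested probes 39.7% were higher and 32.5% lower. Of the trophoblast markers 9 of 9 tested were higher in butyrate, with summed signals of 128000 to 132000 in butyrate and 29800 to 34500 in LIF, and no sample had Tpbpa well above background. Of the fibroblast markers 8 of 9 were higher (22000 to 23300 in butyrate and 6670 to 7310 in LIF), Thy1 was lower and Lum was not tested. Of the extraembryonic endoderm markers 7 of 8 were higher (14100 to 15100 in butyrate and 4660 to 4870 in LIF), Gata4 did not pass, and no sample had Ttr or Apoa1 well above background. Of the neural markers 4 of 9 were higher and 3 lower (9960 to 10600 in butyrate and 6430 to 6880 in LIF). Each sum was led by a few bright probes. In butyrate these were Krt8 (51500 to 53200), Krt18 (51400 to 53200) and Krt19 (17400 to 19200) for trophoblast. They were Vim (11700 to 12900) and Col1a1 (6580 to 6930) for fibroblast and Sparc (11900 to 12700) for endoderm. Nes, Tubb3 and Nefl led the neural sum, at 2780 to 3350. Gata4, Gata6 and Foxa2 are also in the retinoic acid responsive list and in the endoderm markers, and Pax6 is also in the neural ones. Tested through their butyrate signal alone were 2 of the fibroblast, 2 of the endoderm and 1 of the trophoblast markers, and of these 2, 1 and 1 are among those counted as higher. The part of such cells in the ratios of the retinoic acid genes was not tested.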

How the data were processed

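The 8 samples were read as the 2 channels of 4 arrays. Agilent Feature Extraction 9.1 read the scans, per the submitters' processing notes. Each spot of the deposited files has an intensity in either channel and, per the file headers, a log10 ratio of Cy5 over Cy3. On each array at least 75.3% of spots had a ratio within 0.01 of the log10 ratio of their processed signals. How the scanner software formed the ratio of the other spots was not examined. The authors' deposited value table holds log2 values. Its columns follow the log2 processed signals of the same channels (r of 0.9996 or above) and share a median of 6.487, as quantile normalization gives. The sources used here do not name the tool. No genome build is named in the files, and promoter sequences and coordinates are RefSeq's for GRCm38.p6.

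Background was corrected by normexp (offset 50) on the mean signal and the median background, and arrays were normalized by within-array loess in limma 3.58.1 under R 4.3.3, with control spots at weight 0. Of 45018 spots per array 43379 were not controls, and 14 flagged spots were set to missing. Spots of a probe were averaged. Aquantile gave the signals per channel. A probe counted as well above background where over a share of 0.5 of its spots did. The test was lmFit and eBayes on the 4 log2 ratios against 0, adjusted by Benjamini-Hochberg over 25658 probes, with a threshold of 0.05. Depth does not apply to arrays, and their number limits the precision. The fit was tested on simulated data.

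Samples of 1 replicate number share an array, which is where the pairing comes from. Same-numbered samples deviated together from the group means, with r of 0.151 to 0.302 across probes, and samples of other numbers gave −0.223 to 0.0903. Both signals of an array come from the same spots, so these values cannot show whether the cultures were paired. The array is taken out as a block by the ratio.

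The genes and lists were chosen with earlier results of these data known. Named from each list were up to 8 genes that rose and 8 that fell most among those that passed with the same sign on the 4 arrays, by brightest probe, and the 3 gene names most like the gene with the largest change. A few genes meeting this rule go unreported here. Hoxb1, outside the rule, was chosen after its values were seen. The alternatives comprised other background corrections, scalings, filters, variance models and probe choices, fits without a replicate block or with it as random, leaving out 1 replicate at a time, and the authors' table.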

Additional observations from a re-analysis of the deposited data

Results flagged for a closer look

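One value stood apart from the other samples of its group. The LIF signal of Aldh1a3 probe A_52_P87843 was 123 on array 2, against 100 to 102 on the other arrays, and the gap made up 0.913 of the group's range (Dixon's critical value for 4 samples is 0.829). Of 36 groups checked 1 was so, where chance gives about 1 in 20.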

How the results depend on the processing

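With arrays centred on the median in place of loess, all tested probes had a median log2 ratio of 0.37. The centring used the median of all non-control spots, tested or not. Of the probes that then passed, 92% were higher in butyrate. This share was 55% with loess, 46.2% with the scanner software's log ratio and 44.9% with the authors' deposited value table. Under that centring 1242 probes were lower instead of 8343, 0 of the probes of the 9 genes instead of 3, 1 of the other pathway genes instead of 11 and 3 of the responsive genes instead of 6. Rarg stood at −0.02 (A_51_P372853) and −0.20 (A_51_P372858), Stra6 at 0.30 and Crabp1 at 0.16. The cause was not tested. With the strict filter on dim probes 14 responsive genes were higher instead of 22, with 23 tested in place of 33, and Rarb was not tested. With the authors' table Stra6 stood at −0.28. The fit with no replicate block called 18032 probes and 8 of the 10 probes of the 9 genes, and the block changed none of these 8 calls. Of 228 counts over the alternatives 223 stayed within 1.5 times, and of 188 log2 ratios 183 kept their side of the threshold. In 4 of those 183 a value that did not pass changed sign: Crabp2 stood at −0.10 with the scanner software's log ratio and −0.12 with the authors' table, and Stra6 at 0.02 without array 2 and 0.04 without array 3. With each array left out in turn, Cyp26a1 ran from 1.93 to 2.16. An alternative with no offset in the background correction was added after seeing the data and is among these. Signal over background limits Rarb most, dim in LIF.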
